A study of Mus musculus with 12 samples.

Results

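The cells described here are AtT-20 cells that carry the Pax7 isoform Q-GL+ and AtT-20 cells that carry Pax3, compared with each other. They were chosen by their labels, as 2 Q-GL+ and 2 Pax3 libraries, 4 of the 12 RNA-Seq libraries used from the series. AtT-20 is a mouse pituitary tumor line that serves as a model of corticotropes, the cells that make ACTH. The methods state for the Pax7 constructs that they were introduced with a retrovirus under a CMV promoter and carried Flag tags at both ends. Geneticin-resistant colonies were pooled, so that such a group is a pool of independent colonies and not a clone. For Pax3 the paper states that it was introduced into AtT-20 cells at levels like those of Pax7. The vector, tags and pooling of the Pax3 cells are not stated. The Q-GL+ isoform lacks a spliced-in glutamine (Q) in its paired domain and holds a spliced-in glycine and leucine (GL) there, whereas Pax3 is of the Q+GL- form, is a different protein and lacks the C-terminal extension of Pax7 with its OAR motif. These differences change together between the groups and their parts cannot be told apart. The other libraries are those of Q+GL+, Q-GL- and the deletion mutant Pax7-465, which entered the same fit, and those of a Pax7 labelled NoTag, which did not. AtT-20 cells without an introduced factor were not analysed here, so that a difference says how the groups stand to each other and not which of them changed.

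Pax3 and Pax7 are close relatives that bind DNA through a paired domain and a homeodomain. In the pituitary, Pax7 is a pioneer factor that opens enhancers and, together with the T-box factor Tpit, the product of Tbx19, specifies melanotropes of the intermediate lobe. Pax3 is not made in the pituitary and is known from muscle precursors, the neural tube and the neural crest. Melanotropes and corticotropes both make the prohormone POMC but cut it differently, since melanotropes use the convertase PC2, the product of Pcsk2, to reach α-MSH. Setting Q-GL+ beside Pax3 asks how far the transcriptomes of these cells differ.

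The introduced factor was checked first. The Pax7 transcript stood at 104 and 102 FPKM in the Q-GL+ libraries and at 0.159 and 0.161 FPKM in the Pax3 libraries. FPKM are fragments scaled by transcript length and library total. The level of Pax3 itself was not analysed here. Tbx19 was at 119 and 134 FPKM with Pax3 and at 129 and 119 FPKM in Q-GL+ cells, and the groups overlapped. Pomc was at 5112 and 6422 FPKM in Pax3 cells against 7226 and 6593 FPKM in Q-GL+ cells. Both groups thus held Tbx19 and Pomc transcripts, which do not tell corticotropes from melanotropes. Of 15 markers of other pituitary cell types only 4 were listed, so little can be said of those cells. Ghrhr and Lhb were listed at 0 in all 4 libraries, which does not show that they were absent. The 4 markers summed to 4.84 and 4.31 FPKM (Pax3) and to 4.10 and 4.18 FPKM (Q-GL+), most of it Sox2. Summed FPKM ran from 413794 to 483161 over the 4 libraries, and their read depth is unknown. Over the tested genes the Pax3 replicates correlated at 0.989 and the Q-GL+ replicates at 0.993, and Q-GL+ replicate 1 correlated with Pax3 replicate 2 at 0.989 as well. The median difference between replicates was 0.15 on the log2 scale for Pax3, the widest of the 5 groups of the fit, and 0.11 for Q-GL+.

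Few genes differed between Q-GL+ and Pax3 cells, and most of those were higher in Q-GL+ cells by less than a doubling. Of the 12027 genes that reached 1 FPKM in 2 or more of the 4 libraries, 67 (0.557%) passed limma's test at a Benjamini-Hochberg adjusted p under 0.05, 49 higher (0.407%) and 18 lower (0.15%) in Q-GL+ cells. The libraries of the groups did not overlap for any of the 67, against 18.9% of all genes tested that lay wholly higher and 15.3% that lay wholly lower. Fold changes are given throughout as Q-GL+ minus Pax3 on the log2(FPKM + 1) scale, which understates the change of genes at low levels. The median log2 fold change was 0.72 for the genes that were higher, -0.59 for those that were lower and 0.01 for all genes tested. A log2 fold change of at least 1 was reached by 5 of the genes that were higher and by 1 that was lower, and the smallest that passed the test was 0.37. Of the 67 genes, 59 are protein coding. In bulk RNA, fewer cells with a transcript and less of it per cell cannot be told apart.

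**Figure D1:**
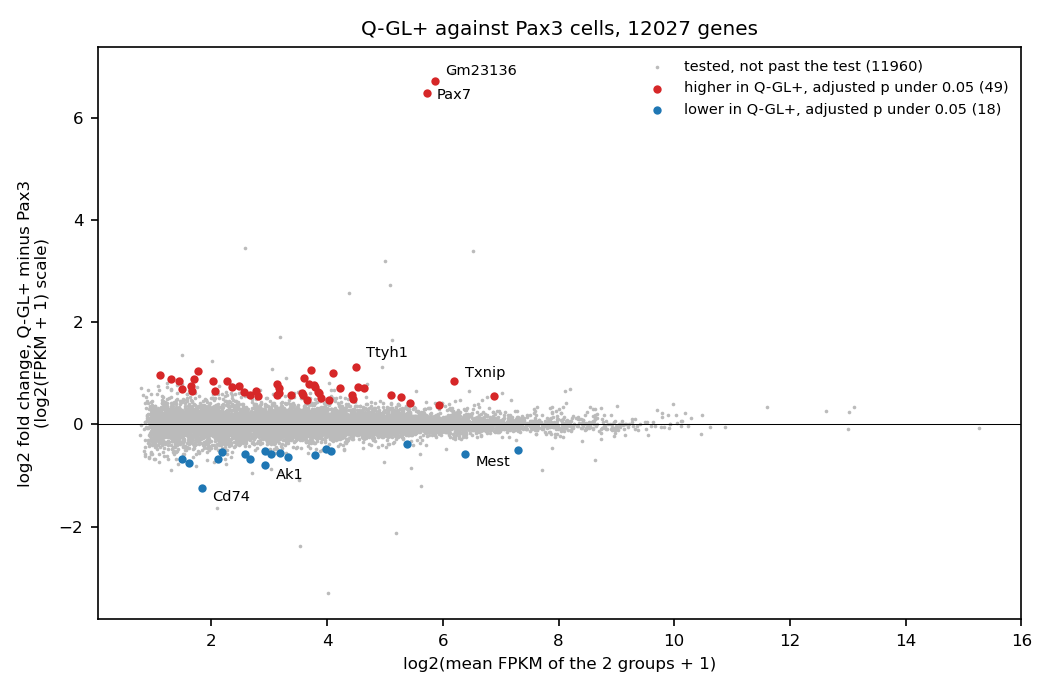
Each point is 1 of 12027 genes, with log2(mean FPKM + 1) of the Q-GL+ and Pax3 groups on the horizontal axis and the log2 fold change, Q-GL+ minus Pax3, on the vertical axis. Red marks the 49 genes past the test that were higher and blue the 18 that were lower; apart from the introduced Pax7 and the small RNA Gm23136 they lie between -1.25 and 1.12.

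The number of genes past the test rested on single libraries. It fell to 3 when Pax3 replicate 1 was left out and to 52 when Pax3 replicate 2 was. Leaving out Q-GL+ replicate 1 gave 5 genes, and replicate 2 of that group 15. The genes Cd74, Trp53i11 and Pax7 remained past the test whichever of the 4 libraries was left out. All 67 genes kept their direction in each of these fits, which could not come out otherwise, since their libraries did not overlap. Under the other alternatives fixed in advance, 30 of the 67 passed every time, counting as not passed those outside the 51 that were tested under the filter of 5 FPKM. At an unadjusted p under 0.05 stood 1117 genes (9.29%), 637 higher and 480 lower.

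**Figure D2:**
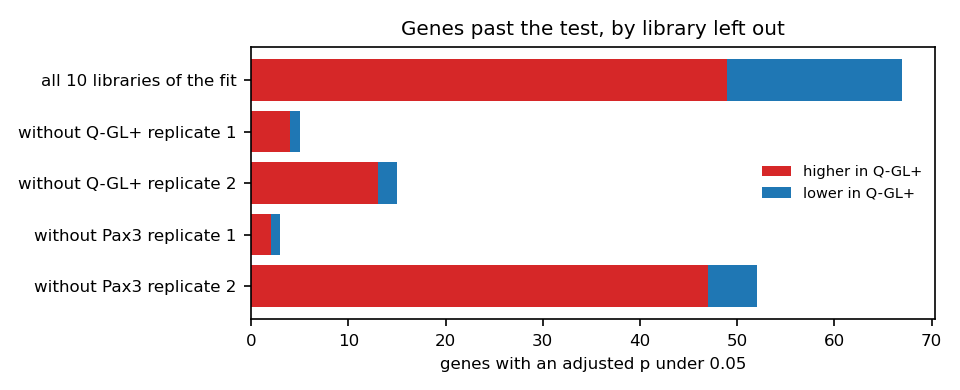
Bars give the number of genes with an adjusted p under 0.05 (horizontal axis) with all 10 libraries of the fit and with each Q-GL+ or Pax3 library left out (vertical axis), red for genes higher and blue for genes lower in Q-GL+ cells. The counts are 67 with all libraries and between 3 and 52 with a library left out.

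Among the genes that were higher in Q-GL+ cells, Trp53i11, a gene named for its induction by p53, had the smallest adjusted p of the protein-coding genes apart from the introduced Pax7. It lies on the plus strand of chromosome 2 at 93187548 to 93201759 (GRCm38). Its level was 10.5 and 10.4 FPKM with Pax3 against 23.6 and 20.3 FPKM with Q-GL+ (log2 fold change 1.0 ± 0.09, SE, adjusted p = 0.000935). The Q+GL+ cells, at a mean of 9.76 FPKM, and the Q-GL- cells, at 9.22 FPKM, stood beside Pax3, and Q-GL+ cells were also higher than each of them (adjusted p = 0.000544 and 6.1e-05). A level like that of Q-GL+ was also listed for NoTag cells, outside the fit, at 23.1 and 22.8 FPKM. The NoTag libraries summed to 666609 and 627305 FPKM, against 413794 to 483161 FPKM in the 4 libraries compared. Values of NoTag cells, here and below, may therefore not be on the same scale. In the comparisons of Q-GL+ with Q+GL+ and with Q-GL- cells, 0.649% and 3.13% of all genes passed the test. Those shares are of all genes and not of genes picked for a difference from Pax3. The comparisons also use the same Q-GL+ libraries, so their p-values are not separate evidence. The same holds below wherever Q-GL+ or Pax3 is set against Q+GL+ or Q-GL- cells.

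The order in which the genes follow was chosen after their values were seen. Ttyh1, of the tweety family of membrane proteins annotated as chloride channels, was at 11.5 and 15.0 FPKM with Pax3 and at 31.4 and 28.2 FPKM in Q-GL+ cells (log2 fold change 1.12 ± 0.16, SE, adjusted p = 0.0194). In Q-GL- cells it reached 60.5 FPKM, higher than in Q-GL+ cells (adjusted p = 0.00799), so that Q-GL+ lay between Pax3 and Q-GL-. Scn2b, the β2 subunit of voltage-gated sodium channels, was at 2.25 FPKM in both Pax3 libraries and at 4.29 and 3.95 FPKM in Q-GL+ cells (0.65 ± 0.10, adjusted p = 0.0227), and was lower than that in Q+GL+ and Q-GL- cells too (means 2.52 and 2.27 FPKM, adjusted p = 0.0422 and 0.00562). The potassium channel gene Kcnq1 was at 4.39 and 4.28 FPKM in Pax3 cells against 7.39 and 7.29 FPKM in Q-GL+ cells (0.65 ± 0.11, adjusted p = 0.0245). Atp2a3, a calcium pump of the endoplasmic reticulum, was at 2.39 and 3.32 FPKM against 5.46 and 5.26 FPKM (0.73 ± 0.14, adjusted p = 0.0498), close to the threshold, and passed under 8 of 15 alternatives. On the list of ion channels, which holds Ttyh1 and Scn2b, 2 of 30 genes were higher and 0 lower (all genes: 0.407% and 0.15%), and at an unadjusted p under 0.05 there were 5 higher and 4 lower (all genes: 5.3% and 3.99%).

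Dmkn, which encodes the secreted epithelial protein dermokine, was at 6.51 and 8.63 FPKM with Pax3 and at 18.3 and 15.4 FPKM in Q-GL+ cells (log2 fold change 1.07 ± 0.14, SE, adjusted p = 0.0107). The membrane protease gene Tmprss4 was at 8.26 and 10.1 FPKM against 17.4 and 15.2 FPKM (0.76 ± 0.10, adjusted p = 0.0107). For neither did Q-GL- cells differ detectably from Q-GL+ cells (16.5 and 17.2 FPKM, adjusted p = 0.954 and 0.766), while Q+GL+ cells were lower than Q-GL+ cells (9.12 and 9.42 FPKM, adjusted p = 0.0255 and 0.00894). The keratin gene Krt80 stood at 0.745 and 0.712 FPKM against 2.11 and 2.26 FPKM (0.88 ± 0.11, adjusted p = 0.00941). Krt7, the next tested gene on the chromosome, was far more abundant, at 89.7 and 99.4 FPKM against 144 and 134 FPKM (0.55 ± 0.09, adjusted p = 0.0245). Upk3a, a uroplakin of the bladder lining, was at 11.3 and 15.2 FPKM against 22.9 and 21.7 FPKM (0.72 ± 0.13, adjusted p = 0.034). The whole list of 20 markers of non-endocrine cells had 8 genes in the table, which summed to 47.8 and 54.6 FPKM with Pax3 and to 58.0 and 55.9 FPKM with Q-GL+, nearly all of it Epcam and Mbp. Pdgfra, Pdgfrb and Csf1r were listed at 0. No member passed limma's test, and 1 of the 2 tested had an unadjusted p under 0.05 (all genes: 9.29%). The epithelial marker Epcam among them was at 19.9 and 23.3 FPKM against 25.6 and 25.0 FPKM (adjusted p = 0.513), and its part in the differences of Dmkn, Tmprss4, Krt80, Krt7 and Upk3a was not tested.

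Tac4, which encodes a tachykinin peptide, was at 3.14 and 3.16 FPKM with Pax3 and at 6.10 and 5.93 FPKM in Q-GL+ cells (log2 fold change 0.76 ± 0.12, SE, adjusted p = 0.0238), with means of 2.48 FPKM in Q+GL+ and 2.90 FPKM in Q-GL- cells (adjusted p = 0.00368 and 0.00313 against Q-GL+). The plasma protein gene Ambp was at 1.09 and 1.58 FPKM against 3.0 and 2.82 FPKM (0.75 ± 0.13, adjusted p = 0.0371), and here too Q-GL+ stood above Q+GL+ and Q-GL- (adjusted p = 0.025 and 0.0312). Lbp, the lipopolysaccharide-binding protein, was at 1.03 and 0.814 FPKM against 2.63 and 2.34 FPKM (0.86 ± 0.12, adjusted p = 0.0143). Pglyrp3, a peptidoglycan recognition protein, was at 2.71 and 2.17 FPKM against 6.04 and 4.45 FPKM (0.85 ± 0.14, adjusted p = 0.0238). Igfbp4, which binds insulin-like growth factors, was at 16.2 and 16.6 FPKM against 25.8 and 23.9 FPKM (0.57 ± 0.11, adjusted p = 0.0486), a call kept under 7 of 15 alternatives.

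Kif12, a kinesin motor, was at 1.06 and 1.39 FPKM with Pax3 and at 3.95 and 3.24 FPKM in Q-GL+ cells (log2 fold change 1.05 ± 0.13, SE, adjusted p = 0.0059). Ablim1, an actin-binding LIM protein, was at 5.57 and 5.29 FPKM against 10.4 and 9.94 FPKM (0.80 ± 0.09, adjusted p = 0.00451), and Q+GL+ cells were lower than Q-GL+ cells (6.45 FPKM, adjusted p = 0.0137). The small GTPase gene Rhou was at 4.37 and 4.97 FPKM against 7.44 and 7.20 FPKM (0.56 ± 0.10, adjusted p = 0.0406) and was higher still in Q-GL- cells (11.8 FPKM, adjusted p = 0.00697 against Q-GL+). Col18a1, the collagen XVIII chain of basement membranes, was at 5.97 and 6.19 FPKM against 10.6 and 9.16 FPKM (0.62 ± 0.09, adjusted p = 0.0193).

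Txnip was lower with Pax3 than with the 3 isoforms Q-GL+, Q+GL+ and Q-GL-, but not clearly lower than in all Pax7 cells. This gene, whose product binds thioredoxin and whose transcript is known to follow glucose, was at 44.7 and 59.0 FPKM with Pax3 and at 100 and 86.5 FPKM in Q-GL+ cells (log2 fold change 0.85 ± 0.14, SE, adjusted p = 0.0245). Q+GL+ cells had 96.1 FPKM and Q-GL- cells 107 FPKM, and neither differed detectably from Q-GL+ (adjusted p = 0.95 and 0.5), while Pax3 was lower than each of them (adjusted p = 0.0442 and 0.00208, in comparisons where 0.133% and 3.4% of all genes passed). Pax7-465 cells stood nearer to Pax3, at 66.7 and 65.9 FPKM. NoTag cells, outside the fit and with higher summed FPKM, were at 57.7 and 52.3 FPKM, within the range of the Pax3 libraries. Klhdc1, of the kelch family, was also lowest with Pax3, with 3.43 and 3.81 FPKM for Pax3, 6.73 and 5.59 FPKM for Q-GL+, and means of 6.26 and 6.90 FPKM in Q+GL+ and Q-GL- cells (adjusted p = 0.0442 and 0.00208 against Pax3).

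**Figure D3:**
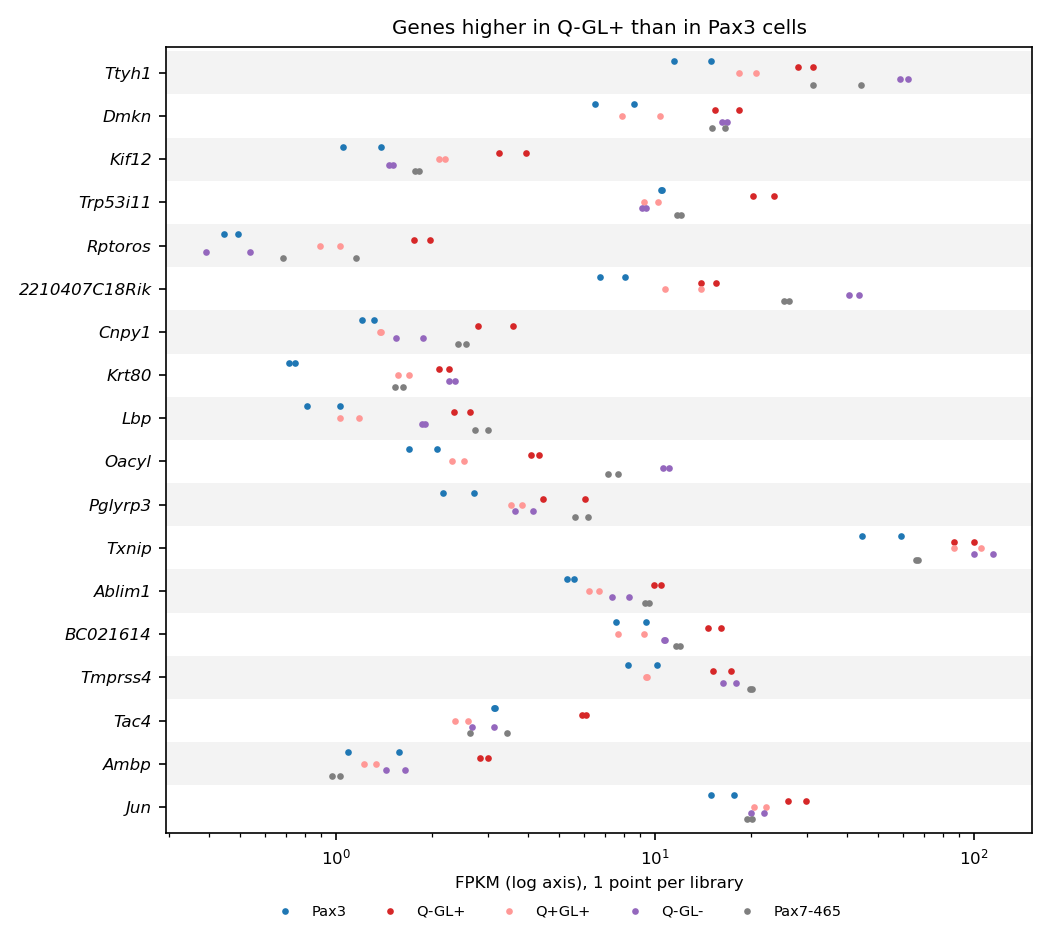
FPKM on a log axis (horizontal) for the 18 genes with the largest differences among those higher in Q-GL+ cells, other than Pax7 and Gm23136; each point is 1 library and the colours are the 5 groups of the fit. The red Q-GL+ points lie to the right of the blue Pax3 points for every gene shown, while the position of Q+GL+, Q-GL- and Pax7-465 changes from gene to gene.

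The promoters of 3 genes are shown, those with the largest differences among the higher genes whose RefSeq start is the start in the deposited table. Each is the 250 bases before the RefSeq start (GRCm38.p6), with ATTA and TAAT, the core that homeodomains of this family bind, in capitals. They lie at chr7:30763506-30763755 (plus strand) for Dmkn, chr4:63172132-63172381 (minus strand) for Kif12 and chr2:93187298-93187547 (plus strand) for Trp53i11.
Dmkn: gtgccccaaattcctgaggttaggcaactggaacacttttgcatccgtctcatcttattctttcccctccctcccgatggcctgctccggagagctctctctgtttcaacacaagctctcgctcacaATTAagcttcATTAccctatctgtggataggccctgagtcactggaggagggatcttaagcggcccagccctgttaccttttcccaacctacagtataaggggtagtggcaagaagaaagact
Kif12: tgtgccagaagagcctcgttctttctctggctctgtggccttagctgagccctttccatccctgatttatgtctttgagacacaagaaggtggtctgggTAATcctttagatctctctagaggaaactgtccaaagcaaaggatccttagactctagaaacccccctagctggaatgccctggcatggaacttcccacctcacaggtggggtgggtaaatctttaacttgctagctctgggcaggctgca
Trp53i11: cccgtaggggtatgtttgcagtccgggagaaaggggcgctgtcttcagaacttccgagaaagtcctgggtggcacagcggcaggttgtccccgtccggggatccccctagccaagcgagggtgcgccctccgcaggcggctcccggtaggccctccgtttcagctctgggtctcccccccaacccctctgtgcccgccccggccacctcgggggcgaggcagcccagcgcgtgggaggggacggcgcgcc
Searched on both strands, ATTA is in 54.9% of all 32851 RefSeq promoters of this length, in 14 of 29 matched promoters of genes that were higher and in 3 of 12 of genes that were lower, among the 41 of 67 genes with a RefSeq start within 1000 bases of the deposited one. GTCACG, a core of the paired domain's site, is in 6.93% of all promoters, in 2 of the 29 and in 0 of the 12. A match is only a run of letters in this window, and neither the presence nor the absence of one says whether Pax7 or Pax3 binds there.

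Of the genes that were lower in Q-GL+ cells, Cd74 had the largest difference. It encodes the invariant chain that escorts class II MHC molecules. Its level was 3.64 and 4.45 FPKM with Pax3 against 1.09 and 1.13 FPKM with Q-GL+ (log2 fold change -1.25 ± 0.13, SE, adjusted p = 0.00213). In Q+GL+ and Q-GL- cells it was at 8.76 and 7.87 FPKM, so that Q-GL+ was the lowest group and also differed from both (adjusted p = 2.02e-05 and 1.37e-05). Ak1, an adenylate kinase that interconverts adenine nucleotides, was at 7.97 and 9.33 FPKM in Pax3 cells against 4.66 and 4.49 FPKM (-0.79 ± 0.12, adjusted p = 0.0199), and again lower than in Q+GL+ and Q-GL- cells (8.99 and 7.67 FPKM, adjusted p = 0.00929 and 0.0155). Eda2r, a receptor of the TNF receptor family, was likewise lowest in Q-GL+ cells, with 8.35 and 9.23 FPKM against 5.35 and 5.68 FPKM (-0.59 ± 0.09, adjusted p = 0.0199) and adjusted p of 0.015 and 0.0115 against Q+GL+ and Q-GL-.

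The promoter of Ak1, the gene of this group with the largest difference whose deposited and RefSeq starts are the same, lies at chr2:32621508-32621757 (plus strand, GRCm38.p6) and holds no ATTA or TAAT in its 250 bases.
Ak1: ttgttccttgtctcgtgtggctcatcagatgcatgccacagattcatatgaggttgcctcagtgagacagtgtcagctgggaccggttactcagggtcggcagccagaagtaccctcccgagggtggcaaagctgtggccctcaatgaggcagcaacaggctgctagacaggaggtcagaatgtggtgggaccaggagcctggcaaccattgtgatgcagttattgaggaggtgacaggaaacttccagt

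Fgfr2, a receptor for fibroblast growth factors, was at 10.7 and 11.6 FPKM with Pax3 and at 7.75 and 6.03 FPKM in Q-GL+ cells (log2 fold change -0.63 ± 0.12, SE, adjusted p = 0.0471). Il17rc, an interleukin-17 receptor chain, was at 17.2 and 14.3 FPKM against 9.72 and 10.4 FPKM (-0.60 ± 0.11, adjusted p = 0.0498). The adhesion molecule gene Mcam was at 4.37 and 4.25 FPKM against 2.29 and 2.37 FPKM (-0.68 ± 0.12, adjusted p = 0.0323). Itpkb, an inositol trisphosphate kinase, was at 5.89 and 6.54 FPKM against 3.78 and 3.81 FPKM (-0.59 ± 0.10, adjusted p = 0.0254). Gna14, a G-protein α subunit, was at 7.68 and 8.34 FPKM against 5.50 and 5.02 FPKM (-0.53 ± 0.10, adjusted p = 0.0406). Ppp1r14c, an inhibitor of protein phosphatase 1, was at 2.6 and 2.34 FPKM against 1.08 and 1.25 FPKM (-0.68 ± 0.13, adjusted p = 0.0498). These calls were not all stable: Fgfr2 passed under 6 of 15 alternatives, Il17rc under 5 of 15 and Ppp1r14c under 4 of 14.

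The most abundant genes of the lower group were 1700086L19Rik, at 166 and 198 FPKM in Pax3 cells against 132 and 126 FPKM in Q-GL+ cells, and the imprinted gene Mest, at 97.7 and 100.4 FPKM against 69.8 and 62.8 FPKM (log2 fold change -0.57 ± 0.08, SE, adjusted p = 0.0174). Plagl1, an imprinted zinc-finger gene, was at 46.1 and 47.0 FPKM against 36.0 and 34.4 FPKM (-0.39 ± 0.08, adjusted p = 0.0498), the smallest difference that passed the test in this direction. Trib2, a pseudokinase of the tribbles family, was at 18.5 and 18.9 FPKM against 13.6 and 11.9 FPKM (-0.52 ± 0.09, adjusted p = 0.0258), whereas its relative Trib1 was higher in Q-GL+ cells, at 6.23 and 5.91 FPKM against 9.62 and 9.54 FPKM (0.58 ± 0.10, adjusted p = 0.0323). The pair of relatives thus differed in opposite directions. The other genes of the lower group were Fam212b, 2900076A07Rik, Atp10a, Dbpht2 and Gm13648, with log2 fold changes between -0.76 and -0.49. The annotation gives 1700086L19Rik as a transcribed pseudogene and Gm13648 as a processed transcript. The calls of 1700086L19Rik (5 of 15 alternatives), Plagl1 (4 of 15), Gm13648 and Atp10a (5 of 14 each) were lost under most alternatives.

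**Figure D4:**
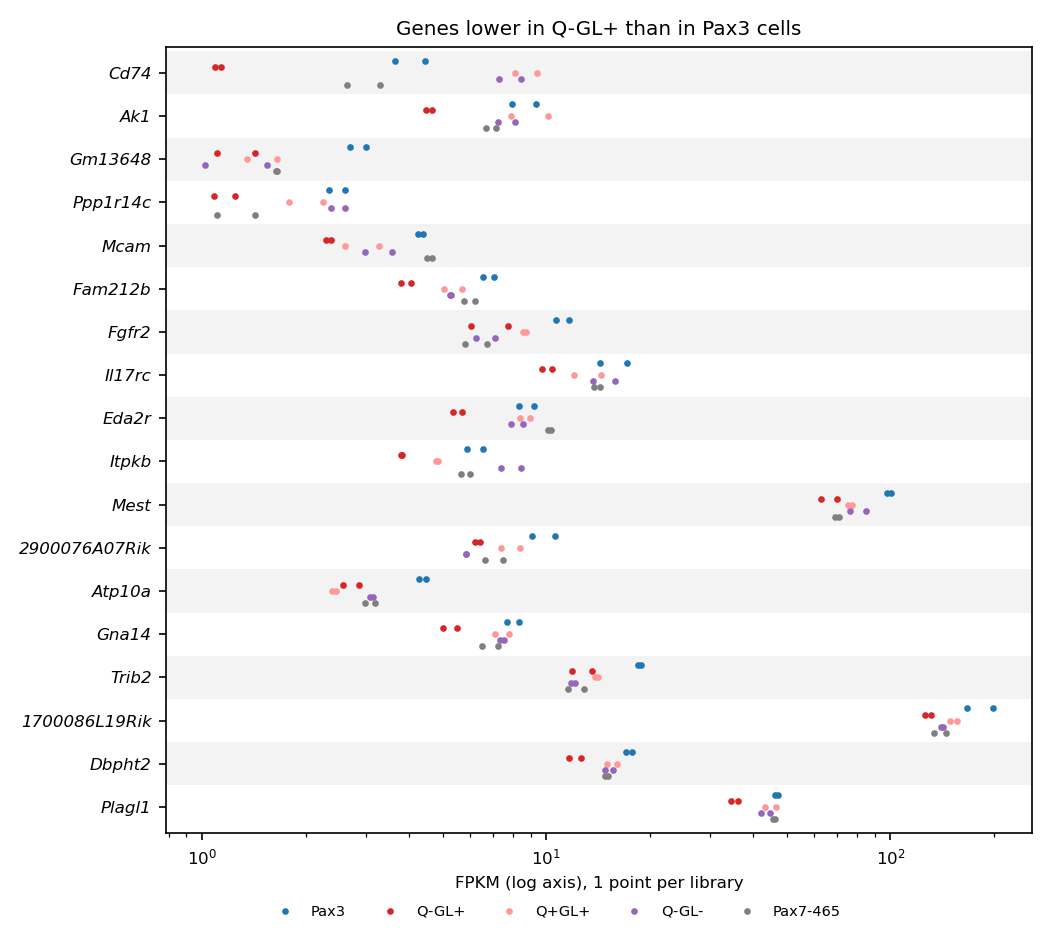
FPKM on a log axis (horizontal) for the 18 genes past the test and lower with Q-GL+; each point is 1 library and the colours are the 5 groups of the fit. The blue Pax3 points lie to the right of the red Q-GL+ points for every gene, and for Cd74 the Q+GL+ and Q-GL- points lie further to the right still.

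Melanotrope genes are here a list of genes named for the intermediate lobe cells in which Pax7 acts. Not all of them distinguish these cells, since the list holds Pomc, which corticotropes make too. Of the 14 tested, 3 were higher (Ttyh1, Oacyl and the introduced Pax7) and 1 was lower (Mest). Since the difference in Pax7 was set by the design, the list is best read without it, as 2 higher and 1 lower of 13 (23.1% beside 0.557% of all genes), with 6 higher and 1 lower before adjustment (p under 0.05; all genes: 5.3% and 3.99%). The list holds genes that the study named from these cells, so its count is not independent evidence of a direction. Without Q-GL+ replicate 1 or Pax3 replicate 1 all 3 of these genes lost their calls and Pax7 alone remained, without Q-GL+ replicate 2 there was 1 besides Pax7, and without Pax3 replicate 2 there were 3. Its median log2 fold change without Pax7 was 0.23, against 0.01 for all genes tested. Oacyl, an acyltransferase-like gene, was at 1.69 and 2.08 FPKM with Pax3 and at 4.34 and 4.11 FPKM in Q-GL+ cells (0.86 ± 0.10, SE, adjusted p = 0.0059), with 2.41 FPKM in Q+GL+ cells (adjusted p = 0.0232) and 10.9 FPKM in Q-GL- cells (adjusted p = 0.00011). The convertase gene Pcsk2 was at 17.2 and 18.9 FPKM with Pax3 and at 16.2 and 15.5 FPKM with Q-GL+ (-0.18 ± 0.08), which did not pass the test (adjusted p = 0.542), and at 36.2 FPKM in Q-GL- cells (adjusted p = 2.68e-05 against Q-GL+). Timp2, an inhibitor of matrix proteases, was at 25.9 and 27.3 FPKM against 34.2 and 33.7 FPKM (0.34 ± 0.08, adjusted p = 0.0876), and the receptor tyrosine kinase gene Kit at 3.22 and 3.30 FPKM against 4.55 and 5.03 FPKM (0.44 ± 0.11, adjusted p = 0.12). Rgs4, which speeds the turn-off of G proteins, stood at 1.69 and 2.15 FPKM against 1.81 and 1.71 FPKM, overlapping, and at 20.2 FPKM in Q-GL- cells. For Pomc the log2 fold change was 0.27 ± 0.14 (adjusted p = 0.615). It became 0 after quantile normalization, which gives a gene of equal rank in each library the same value.

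None of the 8 tested corticotrope genes passed limma's test, and at an unadjusted p under 0.05 there were 0 as well (all genes: 9.29%). The alternatives called at most 1. Their log2 fold changes lay between -0.21 and 0.24, with a median of 0.00. Pcsk1, which encodes the convertase that makes ACTH, was at 225 and 259 FPKM with Pax3 and at 291 and 270 FPKM in Q-GL+ cells (0.21 ± 0.10, adjusted p = 0.541). Tbx19 gave -0.03 ± 0.09 (adjusted p = 0.964), the glucocorticoid receptor gene Nr3c1 0.04 ± 0.09 and Neurod1 0.05 ± 0.08. With 2 libraries a group, such p-values do not show that the levels are the same.

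**Figure D5:**
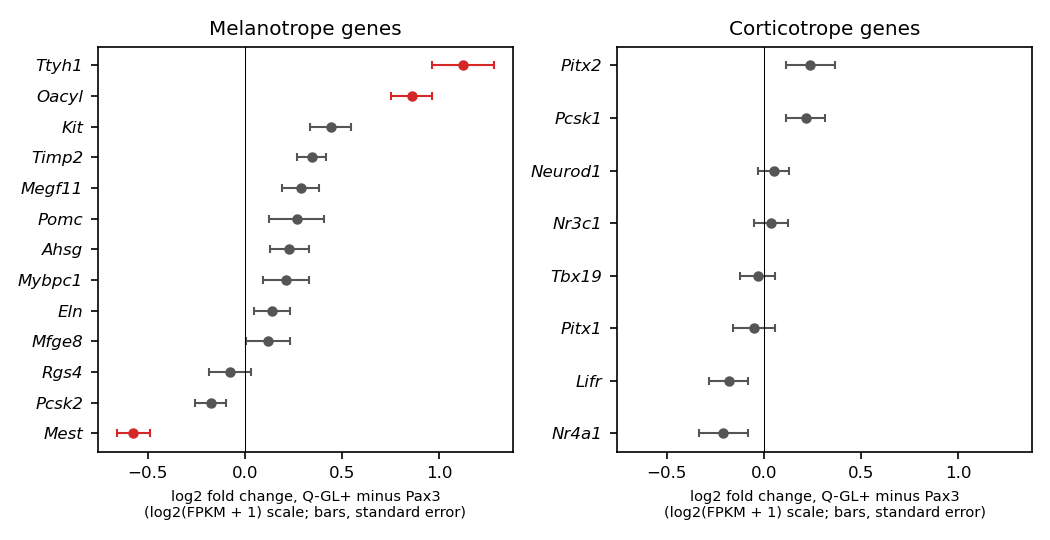
Log2 fold change, Q-GL+ minus Pax3, on the horizontal axis for 13 melanotrope genes (left, without the introduced Pax7) and 8 corticotrope genes (right); bars are standard errors and red marks genes past the test. Ttyh1 and Oacyl lie highest at 1.12 and 0.86, Mest lowest at -0.57, and the corticotrope genes stay between -0.21 and 0.24.

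Immediate early genes are those that cells switch on within minutes of a stimulus. Of the 18 tested, 3 were higher and 0 lower (16.7%; all genes: 0.407% and 0.15%), and the unadjusted p was under 0.05 for 9 that were higher and 1 that was lower (all genes: 5.3% and 3.99%), with a median log2 fold change of 0.20. Jun, a subunit of the AP-1 factor, was at 15.0 and 17.7 FPKM with Pax3 and at 26.1 and 29.8 FPKM in Q-GL+ cells (0.74 ± 0.10, SE, adjusted p = 0.0107). Klf4, a zinc-finger factor, was at 17.1 and 16.9 FPKM against 24.0 and 25.3 FPKM (0.51 ± 0.08, adjusted p = 0.0245), and Q-GL+ was also higher than Q+GL+ and Q-GL- (16.7 and 17.6 FPKM, adjusted p = 0.0137 and 0.0113). Dusp1, a phosphatase that turns off MAP kinases, was at 6.72 and 7.87 FPKM against 10.3 and 12.6 FPKM (0.58 ± 0.11, adjusted p = 0.0406). The stress factor gene Atf3 missed the threshold at 8.59 and 10.6 FPKM against 13.2 and 14.8 FPKM (0.51 ± 0.11, adjusted p = 0.0876). All 3 calls were lost without Q-GL+ replicate 1, Q-GL+ replicate 2 or Pax3 replicate 1, and 2 genes of the list passed without Pax3 replicate 2. Junb and Fosl1 were listed at 0 in all 4 libraries.

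Among genes of antigen presentation 1 of 14 was higher (H2-T23) and 1 was lower (Cd74), 14.3% beside the 0.557% of all genes. H2-T23, a non-classical class I molecule, was at 28.1 and 33.7 FPKM with Pax3 and at 47.2 and 42.6 FPKM in Q-GL+ cells (log2 fold change 0.53 ± 0.10, SE, adjusted p = 0.0406), and since class I genes are near copies of each other this value is uncertain. The class I light chain gene B2m did not pass the test (-0.21 ± 0.09, adjusted p = 0.511). Of 20 interferon response genes none passed limma's test, while 1 was higher and 5 were lower at an unadjusted p under 0.05 (all genes: 5.3% and 3.99%), among them Bst2 (19.9 and 22.5 against 15.5 and 17.5 FPKM, adjusted p = 0.242).

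Genes of the secretory pathway mostly showed no difference past the test. Of 22 genes of prohormone processing and granules none passed limma's test, while up to 4 did under another of the alternatives. At an unadjusted p under 0.05 there were 1 higher and 2 lower (all genes: 5.3% and 3.99%). Vgf, a granule protein, was at 40.0 and 47.0 FPKM with Pax3 and at 63.0 and 56.1 FPKM in Q-GL+ cells (log2 fold change 0.45 ± 0.10, SE, adjusted p = 0.0876). Pam, which amidates peptides, gave -0.27 ± 0.09 (adjusted p = 0.301). In the exocytosis list, 1 of 20 was higher (5%; all genes: 0.407%), namely Syt7, a calcium sensor of granule fusion, at 35.6 and 36.4 FPKM against 49.5 and 47.3 FPKM (0.42 ± 0.07, adjusted p = 0.0293).

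None of the 25 genes of hypoxia and glycolysis passed limma's test and at most 1 did under an alternative, while without adjustment 7 were higher and 0 were lower (p under 0.05), against 5.3% and 3.99% of all genes, with log2 fold changes between -0.10 and 0.54 and a median of 0.16. Ndrg1, a stress-responsive gene, was at 81.6 and 92.8 FPKM against 123 and 131 FPKM (0.54 ± 0.12, SE, adjusted p = 0.0907), and the glycolytic gene Eno1 at 235 and 237 FPKM against 295 and 308 FPKM (0.35 ± 0.11, adjusted p = 0.301). Bpgm, which makes 2,3-bisphosphoglycerate and is not on the list, passed at 9.45 and 10.9 FPKM against 15.6 and 17.2 FPKM (0.64 ± 0.11, adjusted p = 0.0254).

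Lists of the tissues where Pax3 is known to act held no gene past the test. The paper states that Pax7 too is expressed in skeletal muscle and acts in the neural tube. Without control cells, the lists do not show whether either factor changed these genes. Of 32 skeletal muscle genes 17 were in the table and 8 were tested, of which 0 had an unadjusted p under 0.05 (all genes: 9.29%). Acta1, Chrna1 and Tnnt1 were listed at 0 in all 4 libraries. Of 24 neural crest and melanocyte genes 8 were tested, with 1 higher (Kit) and 1 lower (Zic1) at an unadjusted p under 0.05 (all genes: 5.3% and 3.99%). Zic1, a factor of the dorsal neural tube, was at 1.32 and 1.26 FPKM with Pax3 and at 0.264 and 0.704 FPKM in Q-GL+ cells (log2 fold change -0.64 ± 0.16, SE, adjusted p = 0.147). The muscle gene Eya1, at 15.3 and 18.1 against 18.1 and 17.3 FPKM, overlapped between the groups.

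Of the signalling and matrix lists, Wnt, TGF-beta and FGF signalling had 1 of 17 lower (Fgfr2; all genes: 0.15%), with 1 higher and 5 lower before adjustment (p under 0.05), and extracellular matrix and adhesion had 1 of 15 higher (Col18a1; all genes: 0.407%), with 4 higher and 2 lower without adjustment (all genes: 5.3% and 3.99%). The Notch target Hes1 missed the threshold narrowly at 6.76 and 8.99 FPKM in Pax3 cells against 11.95 and 13.5 FPKM in Q-GL+ cells (log2 fold change 0.64 ± 0.13, SE, adjusted p = 0.057). It was the only 1 of 13 Notch genes at an unadjusted p under 0.05 (all genes: 9.29%). No gene passed limma's test in the lists of pituitary lineage factors (11 tested), Rgs and G-protein signalling (20), cyclic AMP signalling (24), cholesterol and fatty acid synthesis (32), axon guidance and neuronal adhesion (22), cell cycle (35), ER folding (28), chromatin remodelers and Pax partners (36) and the respiratory chain (25). Their genes at an unadjusted p under 0.05 numbered 1, 3, 2, 2, 4, 3, 2, 0 and 1 in the same order (all genes: 9.29%). Their medians lay between -0.05 and 0.06. No alternative called more than 1 gene in any of these lists.

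The levels in the other Pax7 cells did not divide the genes along 1 line. Among the 49 genes higher in Q-GL+ cells, the mean of Q+GL+ lay nearer to Pax3 for 36 and nearer to Q-GL+ for 13, and the mean of Q-GL- nearer to Pax3 for 24 and nearer to Q-GL+ for 25. Of the 18 genes that were lower, Q+GL+ lay nearer to Pax3 for 8 and Q-GL- for 9. Pax3 had the lowest mean of the 5 groups of the fit for 34 of the 49 genes and Q-GL+ the highest for 31, with both true of 18. For the lower genes Pax3 was the highest of the 5 groups for 12 and Q-GL+ the lowest for 14, with both true of 8. These are orders of means among groups that share libraries with the comparison. The genes were picked for a difference between Q-GL+ and Pax3, which by itself favours the outer places for these groups. No test is given for these orders. Genes with Q-GL+ apart from Pax3, Q+GL+ and Q-GL- in each of the 3 tests included Trp53i11, Tac4, Scn2b, Klf4, Pcp4 and Fam57b among those higher and Cd74, Ak1 and Eda2r among those lower. The 3 tests share the Q-GL+ libraries and are not separate evidence. In NoTag cells, outside the fit and with values that may not be on the same scale, Trp53i11 was beside Q-GL+ (23.1 and 22.8 FPKM). Tac4 (4.65 and 4.92 FPKM), Pcp4 (19.4 and 21.4 FPKM) and Eda2r (7.96 and 6.98 FPKM) lay between Pax3 and Q-GL+ there. Scn2b, Klf4 and Fam57b lay below Pax3, and the Cd74 and Ak1 means were not below those of Pax3. Pcp4, which regulates calmodulin, was at 16.8 and 18.8 FPKM with Pax3 against 29.7 and 30.2 FPKM with Q-GL+, and averaged 15.4 and 13.8 FPKM in the Q+GL+ and Q-GL- groups.

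Small RNAs need separate mention because their FPKM swing between replicates. Gm23136, a snoRNA of 99 bases on chromosome 9, was listed at 0 in both Pax3 libraries and in both Q-GL- libraries and at 161 and 68.1 FPKM in Q-GL+ cells, and passed the test (adjusted p = 0.000935). In Q+GL+ cells it averaged 82.2 FPKM. Its call was lost with all 12 libraries in the fit, with only the 4 libraries compared and without Pax3 replicate 1, with an adjusted p of up to 0.242 over the alternatives. The snoRNA Gm23455 was likewise listed at 0 in Pax3 cells and stood at a mean of 141 FPKM in Q-GL+ cells, but did not pass (adjusted p = 0.4). Reads of such short genes depend on fragment length, and no fold is given against values of 0. Rptoros, an antisense RNA, was at 0.447 and 0.494 FPKM against 1.76 and 1.97 FPKM (log2 fold change 0.96 ± 0.15, SE, adjusted p = 0.0226), and whether the counting used strand is not stated. The remaining genes higher in Q-GL+ cells and not described above had log2 fold changes between 0.37 (Cirbp) and 0.91 (2210407C18Rik).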

How the data were processed

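Strand-specific paired-end RNA-Seq of ribosome-depleted RNA from AtT-20 cells was used, 2 libraries for each of 6 groups. The deposited values are FPKM per gene, which the authors made by trimming with Trimmomatic, mapping with TopHat2 to Ensembl GRCm38 (mm10) and quantifying with HOMER. The versions of TopHat2 and HOMER, the strand setting of the quantification and the total used for scaling are not given in the sources used here. The table of 16385 genes holds 4 further columns of no sample, which were not used. It holds no counts: at most 7.28% of low values lay at the commonest step between libraries, so depth is unknown, and no count model, interval or floor is given.

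The test was limma-trend (robust) on log2(FPKM + 1) for the 12027 genes that reached 1 FPKM in 2 or more of the 4 Q-GL+ and Pax3 libraries. It was fitted to the 10 libraries other than NoTag, each group having its own coefficient, with a Benjamini-Hochberg adjusted p under 0.05. The methods call the replicates biological, without saying that they were separate cultures, so that p-values cover only the spread between these libraries, and an exact 2-sided permutation test of 2 against 2 libraries cannot go below 33.3%. Named genes are up to 20 per direction with the largest fold change past the test, if the higher group averaged 1 FPKM or more and the groups did not overlap, up to 4 members of each of 25 lists, and the melanotrope and corticotrope genes; chosen after their values were seen were Kcnq1, Krt7, Rhou, Igfbp4, Trib1, Klhdc1, Upk3a, Atp2a3, Pcp4, Fam57b, Bpgm, Cirbp, Gm23455, Gm14267, Gm11469, Eya1 and Ggt1. Members and lists were chosen with earlier results of these data known. Pde2a, named by the rule, was not analysed here. Alternatives were other libraries in the fit, normalizations, filters, pseudocount and moderation options, a replicate block and each library left out. The steps were tested on simulated data. Gene coordinates are those of the file. Software was R 4.3.3 (limma 3.58.1, statmod 1.5.0) and Python 3.11.15 (matplotlib 3.10.9, numpy 2.4.6, pandas 2.3.3).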

Additional observations from a re-analysis of the deposited data

How the results depend on the processing

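With 2 libraries a group, unknown depth and no untransduced cells, the counts were sensitive to the processing. All 67 genes kept their direction under every alternative in which they were tested. For most alternatives this was fixed beforehand, because the libraries of the groups did not overlap for any of the 67. Filters, moderation options, the block and added libraries do not alter the difference between the groups. Only the normalizations could have turned a direction. Fits of only the 4 libraries gave 154 genes (104 higher, 50 lower), quantile normalization 158 (100 and 58), median centring 35 lower, limma without the robust option 43 (9 lower) and a pseudocount of 0.1 gave 11 lower. Leaving out a library gave between 3 and 52 genes, between 2 and 47 higher and between 1 and 5 lower, and the lowest counts came without Pax3 replicate 1, without Q-GL+ replicate 1 (5 genes) and without Q-GL+ replicate 2 (15 genes). Without Pax3 replicate 2 there were 5 lower. The cause was not tested.

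With the replicate number as a block, 63 genes passed (49 higher, 14 lower). Deviations of same-numbered Q-GL+ and Pax3 libraries correlated at -0.175, which does not pair them. A replicate block with the Q-GL+ numbers crossed, chosen after seeing the data, gave 122 genes (88 and 34). Without Pax7 and Gm23136, also chosen then, the count was 65. Of the 67, 30 passed under every alternative fixed in advance other than those that leave out a library. Single genes that turned in sign or became 0 did not pass in either fit. Pomc became 0 under quantile normalization, which gives a gene of equal rank in each library the same value. With a library left out, Rgs4 ranged from -0.19 to 0.039 (above 0 without Pax3 replicate 2). Tbx19 ranged from -0.12 to 0.053 (above 0 without Q-GL+ replicate 2 or Pax3 replicate 2). Called genes per list ranged from 1 to 6 for melanotrope genes and from 0 to 6 for immediate early genes.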

Other observations

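Some of the genes that differed between Q-GL+ and Pax3 cells follow each other in the order of tested genes. Genes that were not tested can lie between them. Among 12006 pairs of neighbouring tested genes, 5 had both members past the test, and in each pair both members differed in the same direction. On chromosome 4, Ambp and Kif12 are 10830 bases apart and were higher in Q-GL+ cells by 0.75 and 1.05 on the log2 scale. Krt80 and Krt7 on chromosome 15, separated by 40880 bases, were higher by 0.88 and 0.55. On chromosome 9, the sodium channel subunit gene Scn2b and the protease gene Tmprss4 lie 42655 bases apart and were higher by 0.65 and 0.76. The genes 1700086L19Rik and Dbpht2 on chromosome 12 lie 722 bases apart on the same strand and were lower in Q-GL+ cells by 0.49 each on the log2 scale. Gm14267 and Gm11469 on chromosome 2 overlap on the same strand, the former being annotated as a transcribed processed pseudogene, so that their reads may be shared and their values (0.74 and 0.52) are uncertain. No test is given for these pairs, which were picked out after their values were seen.

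The gene Ggt1, which encodes a glutathione-degrading enzyme, averaged 4.38 FPKM with Pax3 and 10.1 FPKM with Q-GL+ (log2 fold change 1.08 ± 0.20, SE), which missed the threshold of limma's test (adjusted p = 0.0565). It was chosen after its value was seen. Ero1l, an oxidase of the endoplasmic reticulum, was at 60.5 and 69.0 FPKM against 91.2 and 89.5 FPKM (0.48 ± 0.11, adjusted p = 0.0876).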
